A study of Homo sapiens with 16 samples.

Results

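Autophagy genes were followed in 16 RNA-seq libraries of HCT116, a cell line established from a human colorectal carcinoma. The 42 members were taken by name from the 33937 genes of the deposited count matrix, and all 42 had a row. The list was drawn up with results of these data in view, since *MAP1LC3B* was selected on its difference between the cell lines, so differences between the lines are given below as a description, with no p for any member, and the counts of members past the threshold there are not read as a test. The cells were stable lines carrying either a scrambled (SCR) short hairpin RNA or one against NAA40 (NAA40-KD), an enzyme that acetylates the N-termini of histones H4 and H2A. Each line was kept with doxycycline (dox, 1 μg/ml for 96 h), which switches the hairpin on, or without it, giving 4 groups of 4 libraries. The labels call them SCR (+dox) and its counterpart SCR (−dox), together with NAA40-KD (+dox) and its counterpart NAA40-KD (−dox). All groups share the parental line, its medium and its serum, and the sources used here do not say whether a line was 1 clone.

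The labels went against the targeted gene. *NAA40* stood at 26.05, 28.4, 26.2 and 28.8 in SCR (+dox), 34.5, 25.9, 29.1 and 28.2 in SCR (−dox), 31.5, 29.3, 28.7 and 31.9 in NAA40-KD (+dox) and 12.6, 11.6, 9.27 and 13.8 in NAA40-KD (−dox), in TMM-scaled CPM (counts scaled to a common library size). The low values were thus those labelled NAA40-KD (−dox), with no overlap with any other group, while NAA40-KD (+dox) overlapped the SCR groups. From NAA40-KD (+dox) to NAA40-KD (−dox) the log2 fold change was −1.36 ± 0.15 (± SE here and below, adjusted p = 0.0024). Without replicate 4 of NAA40-KD (−dox), described next, it was −1.44 ± 0.10 (adjusted p = 3.70e-11). In the deposited matrix the libraries titled as treated are headed Dox and the others wDox, which can be read as with or as without doxycycline, and an exchange of the labels cannot be told from the sources used here. If the labels of both lines were exchanged, the sign of every (−dox) minus (+dox) value below would turn, in the SCR line too. If only those of the NAA40-KD line were, the SCR signs would stay. The interaction and the line difference at each dox label would then change in more than sign. The *NAA40* values of the SCR groups overlap and do not tell which case holds. Groups are therefore called by their labels throughout, and no direction below is ascribed to doxycycline itself.

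Totals ran from 11065606 to 13855486 counts per library. The library labelled NAA40-KD (−dox) replicate 4 stood apart, at a root mean square log2 distance of 0.877 from the rest of its group against 0.189 to 0.371 for the other 15 libraries. Of 40 members, 10 lay above 1.5 times the mean of its 3 fellow libraries and 18 below that mean divided by 1.5, while at most 3 members passed either limit in any other library. Values without that library, called replicate 4 below, follow the results that rest on this group. The epithelial markers *EPCAM*, *CDH1*, *KRT8*, *KRT18* and *KRT19* were detected in all libraries, whereas *VIL1* did not exceed 0.273 CPM. Their list of 6 genes summed to 3795 to 5489 CPM in the SCR groups, 4052 to 4391 in NAA40-KD (+dox) and 5119 to 11062 in NAA40-KD (−dox), where replicate 4 was the highest. The 4 leukocyte markers summed to at most 1.23 CPM and the 3 endothelial markers to at most 2.96 CPM, and of the 4 fibroblast markers only *COL1A1* exceeded 1.10 CPM. *COL1A1* ran from 56.7 to 195 CPM, and its part in the results was not tested.

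Autophagy encloses cytoplasm in a double membrane, the autophagosome, and delivers it to the lysosome for breakdown. The ULK1 kinase complex starts the process, a class III PI3-kinase complex marks the membrane with the lipid PI3P, and WIPI, ATG2 and ATG9 proteins bring lipid to it. ATG8-family proteins, of the LC3 and GABARAP branches, are trimmed by ATG4 proteases, joined to the membrane by ATG7, ATG3 and the ATG12–ATG5–ATG16L1 complex, and bind receptors such as p62 (*SQSTM1*) that carry cargo. The transcription factors TFEB and TFE3 switch on many lysosomal and autophagy genes through the E-box CACGTG when mTORC1 activity is low.

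The ATG8 family holds the member with the widest difference between the lines, *MAP1LC3B*, and a near copy of it. *MAP1LC3B* (ENSG00000140941) lies at chr16:87383995-87404779 on the plus strand of GRCh38 in 4 coding-transcript exons, and *MAP1LC3B2* (ENSG00000258102) at chr12:116548105-116576448, also on the plus strand, in 2. The 378 coding bases of the 2 genes, from the GENCODE 29 transcripts, differ at 2 positions counted from the A of the start codon, C30G and A338G (*MAP1LC3B* base first), an identity of 99.47%. The first 120 coding bases are shown because the copies differ there only at C30G, with the differing base in capitals:
MAP1LC3B: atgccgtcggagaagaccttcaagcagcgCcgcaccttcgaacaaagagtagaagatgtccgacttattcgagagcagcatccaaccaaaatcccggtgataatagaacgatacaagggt
MAP1LC3B2: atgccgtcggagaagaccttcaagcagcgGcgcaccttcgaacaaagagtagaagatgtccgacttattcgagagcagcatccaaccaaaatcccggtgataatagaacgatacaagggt

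Over the whole 660-base *MAP1LC3B2* transcript, 43.4% of 50-base windows, 39.8% of 75-base windows and 37.1% of 100-base windows were identical to a stretch of *MAP1LC3B*. The counts of *MAP1LC3B2*, at 29 to 118 per library against 929 to 4473 for *MAP1LC3B*, are therefore uncertain. *MAP1LC3B* exons also overlap those of *FBXO31* on the opposite strand. Exons of other members overlap other annotated genes on the opposite strand, *GABARAPL1*, *OPTN*, *WIPI1*, *ATG13* and *SQSTM1* among those named below. *MAP1LC3B2* and *TFE3* had no overlapping gene. Exons of *ATG9A* overlap an annotated gene on the same strand. Whether the counting used the strand is not given in the sources used here.

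The promoters of 37 members, in 47 windows of 250 bases before the RefSeq start (GRCh38.p14), were searched on both strands for motifs of factors known in this pathway. The E-box CACGTG was found in 3 of 47 windows (6.38%), against 6.34% of 35116 promoters of all genes, in *ATG14*, *ATG3* and *LAMP1*. Its extended form TCACGTGA, the core of the CLEAR element bound by TFEB and TFE3, was found in 1 window (2.13%, *LAMP1*) against 0.854% of all promoters, and every such match also holds the E-box. The cAMP response element TGACGTCA was found in 1 window (2.13%, *GABARAPL1*) against 1.65%, and TGATGNAA, a core of elements bound by ATF4, in 0 of 47 against 3.14%. The promoters of 3 members are shown, *MAP1LC3B* for the gene with the widest line difference, *GABARAPL1* for a member that rose and held a motif, and *LAMP1* for the window with the E-boxes of the lysosomal factors. Capitals mark the motifs:
MAP1LC3B, chr16:87392086-87392335, plus strand: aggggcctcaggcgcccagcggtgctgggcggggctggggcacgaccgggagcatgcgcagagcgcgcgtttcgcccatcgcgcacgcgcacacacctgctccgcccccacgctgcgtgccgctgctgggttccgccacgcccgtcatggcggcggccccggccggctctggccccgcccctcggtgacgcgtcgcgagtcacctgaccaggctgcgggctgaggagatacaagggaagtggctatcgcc
GABARAPL1, chr12:10212627-10212876, plus strand: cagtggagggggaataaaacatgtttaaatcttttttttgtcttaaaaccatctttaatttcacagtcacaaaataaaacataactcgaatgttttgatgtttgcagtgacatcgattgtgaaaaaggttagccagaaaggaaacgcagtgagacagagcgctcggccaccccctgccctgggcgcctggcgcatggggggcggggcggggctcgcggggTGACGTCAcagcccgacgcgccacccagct
LAMP1, chr13:113296989-113297238, plus strand: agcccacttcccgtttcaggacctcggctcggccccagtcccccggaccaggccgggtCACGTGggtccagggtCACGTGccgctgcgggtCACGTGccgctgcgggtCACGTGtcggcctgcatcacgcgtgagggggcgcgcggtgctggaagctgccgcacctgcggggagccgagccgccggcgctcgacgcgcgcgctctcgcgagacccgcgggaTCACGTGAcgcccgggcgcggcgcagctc

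The *MAP1LC3B* window held none of the motifs searched and, at its upstream end, overlaps the annotated start of *FBXO31* at 87392142. The *GABARAPL1* window held the response element 30 bases before the start. The *LAMP1* window held the E-box at 5 places, the nearest 28 bases before the start. A match is a run of letters and not a binding site.

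Per kilobase of exon, the members' mean levels over the 16 libraries ran from 0.08 to 64.5 CPM per kb. *ATG12*, whose product is the ubiquitin-like partner of ATG5, was highest at 64.5, followed by *MAP1LC3B* (35.5), the lysosomal membrane gene *LAMP1* (29.7) and *SQSTM1* (25.7). The lowest 5 were *ATG2B* (2.04), *ATG10* (1.64), *TFEB* (1.01), *GABARAP* (0.11) and *MAP1LC3A* (0.08). *MAP1LC3A* had 0 to 4 counts per library and *GABARAP* 1 to 7, and neither passed the filter of CPM >1 in at least 4 libraries, which left 40 of 42 members for the tests. The exons of *GABARAP* overlap those of another annotated gene on the same strand, and the part of that overlap in its low counts was not tested.

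The comparison of NAA40-KD (−dox) with NAA40-KD (+dox) is not the line difference that selected *MAP1LC3B*, but it uses some of the same libraries. The list was also drawn up with earlier results known. Here 6 of 40 members were higher in (−dox) at an adjusted p under 0.05 (edgeR quasi-likelihood test), and 0 were lower, while 12 had an unadjusted p under 0.05. Over all 13844 genes tested, 5.5% were called higher and 4.71% lower, and 3839 had an unadjusted p under 0.05. The 6 were *MAP1LC3B2*, *GABARAPL1*, *OPTN*, *WIPI1*, *TFE3* and *ATG13*, at log2 fold changes of 0.56 to 1.20. The median over the 40 members was 0.09, against 0.04 over all genes. With an absolute log2 fold change above 1 as well, 1 member was left (*MAP1LC3B2*), against 3.99% of all genes. The 2 groups did not overlap for 13 of 40 members, 10 higher and 3 lower, against 29.7% of all genes. Without replicate 4 of NAA40-KD (−dox), 17 members, *MAP1LC3B* among them, were called higher and 5 lower (*AMBRA1*, *ATG16L1*, *LAMP1*, *LAMP2* and *TFEB*). The share of all genes called rose with them, to 26.6% higher and 25.8% lower. The medians were then 0.10 over the members and 0.004 over all genes. In bulk RNA, a change in every cell and a change in the share of cells cannot be told apart.

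In the ATG8 family, 2 of the 4 members tested rose and 0 fell, with a median log2 fold change of 0.62 (4 and 0 without replicate 4, median 0.73). Of all genes, 5.5% were called higher and 4.71% lower, or 26.6% and 25.8% without replicate 4. Every count by role below stands beside these shares. *GABARAPL1*, a GABARAP-branch ATG8 protein, stood at 78.7, 76.5, 65.02 and 69.2 in SCR (+dox), 59.4, 68.9, 69.5 and 64.3 in SCR (−dox), 57.5, 63.3, 55.5 and 49.4 in NAA40-KD (+dox) and 95.3, 110.2, 104.3 and 86.9 in NAA40-KD (−dox) CPM, on 632 to 1448 counts per library. All 4 NAA40-KD (−dox) libraries lay above the 12 others. It was 1.76-fold higher in NAA40-KD (−dox) than in NAA40-KD (+dox), a log2 fold change of 0.82 ± 0.13 (adjusted p = 0.00821), and 0.88 ± 0.07 (adjusted p = 9.91e-10) without replicate 4.

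*MAP1LC3B2* stood at 4.41, 9.20, 4.82 and 6.54 in SCR (+dox), 5.71, 6.41, 4.97 and 2.82 in SCR (−dox), 3.55, 3.26, 2.14 and 3.49 in NAA40-KD (+dox) and 7.46, 8.22, 5.11 and 7.74 in NAA40-KD (−dox) CPM. The 2 NAA40-KD groups did not overlap, while SCR (−dox) overlapped both. Its log2 fold change was 1.20 ± 0.22 (adjusted p = 0.0128), or 1.16 ± 0.20 (adjusted p = 2.77e-05) without replicate 4, with the limits on its counts given above.

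*MAP1LC3B*, which encodes the LC3B protein used as the standard marker of autophagosomes, stood at 85.2, 91.5, 86.7 and 86.5 CPM in NAA40-KD (+dox) and 123.6, 132.7, 138.8 and 76.5 in NAA40-KD (−dox). Of the (−dox) libraries, 3 lay above all (+dox) libraries and replicate 4 below them. The log2 fold change of 0.43 ± 0.18 (adjusted p = 0.165) did not pass the test. Without replicate 4 it was 0.59 ± 0.05 (adjusted p = 3.37e-09). These libraries also entered the line difference that selected *MAP1LC3B*, so both of its p-values are a description. *GABARAPL2*, also of the GABARAP branch, stood at 43.3, 42.98, 41.9 and 42.9 CPM in (+dox) and 51.7, 51.5, 61.4 and 45.5 in (−dox), groups that did not overlap, at 0.30 ± 0.13 (adjusted p = 0.165); without replicate 4 it was 0.36 ± 0.07 (adjusted p = 1.44e-04).

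**Figure D1:**
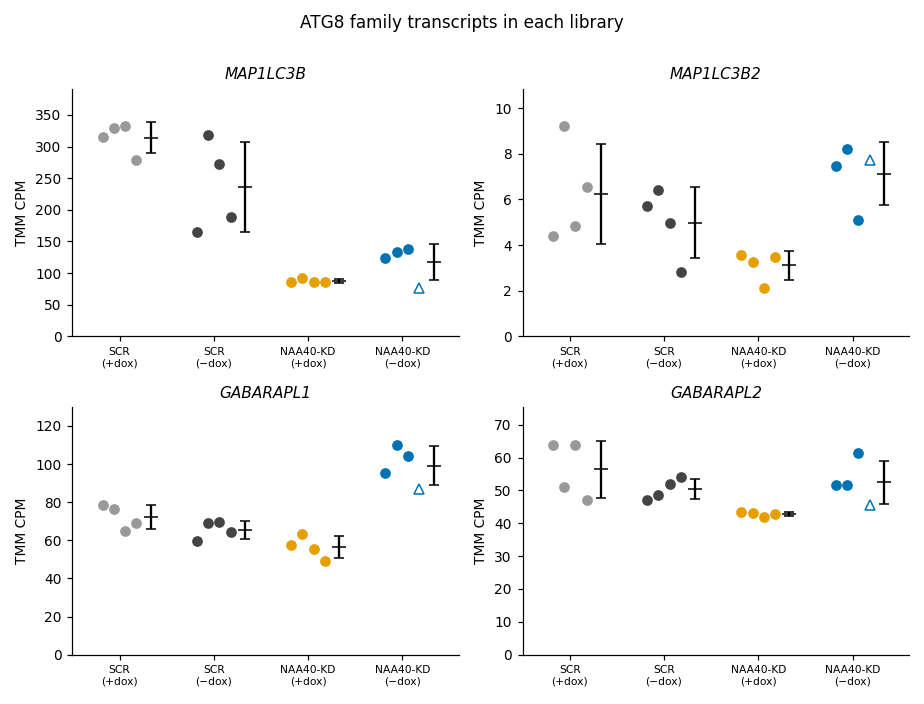
Levels of 4 ATG8-family transcripts (y axis, TMM CPM from 0) in each library of the 4 labelled groups (x axis). Points are libraries, the open triangle is NAA40-KD (−dox) replicate 4, and bars are the mean ± SD (n = 4). *GABARAPL1* is highest in the 4 NAA40-KD (−dox) libraries (86.9 to 110.2 CPM), and *MAP1LC3B* is lower in both NAA40-KD groups than in the SCR groups.

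Among the 5 receptors, which tie cargo to ATG8 proteins, 1 rose and 0 fell (median log2 fold change 0.25), and without replicate 4 it was 4 and 0 (median 0.32). The shares of all genes called higher and lower were 5.5% and 4.71%, or 26.6% and 25.8% without replicate 4. *OPTN*, encoding optineurin, a receptor for mitochondria and bacteria, stood at 56.7, 63.3, 49.7 and 50.7 in SCR (+dox), 46.7, 56.1, 57.7 and 41.7 in SCR (−dox), 42.5, 42.3, 41.2 and 37.9 in NAA40-KD (+dox) and 72.03, 75.5, 80.8 and 59.3 in NAA40-KD (−dox) CPM. The 4 NAA40-KD (−dox) libraries did not overlap with NAA40-KD (+dox). It rose by 0.81 ± 0.13 (adjusted p = 0.00798) on the log2 scale, and 0.90 ± 0.07 (adjusted p = 6.03e-11) without replicate 4.

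*SQSTM1* stood at 182.6, 176.6, 164.4 and 185.5 CPM in NAA40-KD (+dox) and 172.3, 166.8, 181.3 and 326.7 in NAA40-KD (−dox), where replicate 4 alone lay above the rest. Its log2 fold change of 0.26 ± 0.22 (adjusted p = 0.483) turned to −0.03 ± 0.05 (adjusted p = 0.68) without that library. The receptors *NBR1*, *TAX1BP1* and *CALCOCO2* were at 0.08 to 0.25 and did not pass the test. All 3 were called higher without replicate 4, at 0.38, 0.32 and 0.23.

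In the ULK1 complex, 1 of 5 members rose and 0 fell (median log2 fold change 0.56), and without replicate 4 it was 3 and 0 (median 0.25). Beside these counts, 5.5% of all genes were called higher and 4.71% lower, or 26.6% and 25.8% without replicate 4. *ATG13*, the scaffold subunit, stood at 77.1, 83.9, 76.9 and 81.3 in SCR (+dox), 70.9, 84.00, 84.00 and 66.7 in SCR (−dox), 61.8, 64.1, 63.1 and 65.7 in NAA40-KD (+dox) and 89.9, 94.6, 96.96 and 93.3 in NAA40-KD (−dox) CPM. The NAA40-KD (−dox) values, replicate 4 included, lay above all 12 other libraries, and the NAA40-KD (+dox) values below them. The rise on the log2 scale was 0.56 ± 0.11 (adjusted p = 0.0144), and 0.56 ± 0.06 (adjusted p = 1.52e-08) without replicate 4. Leaving out any 1 of the NAA40-KD (+dox) libraries ended the call, at an adjusted p of up to 0.0711 and log2 fold changes of 0.54 to 0.57.

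*ULK1*, the kinase itself, stood at 38.7, 41.1, 33.7 and 35.4 CPM in NAA40-KD (+dox) and 47.5, 50.2, 49.03 and 111.98 in NAA40-KD (−dox). The groups did not overlap, but replicate 4 lay at 2.29 times the mean of its fellows, and the log2 fold change of 0.80 ± 0.29 (adjusted p = 0.11) did not pass the test. It was 0.40 ± 0.07 (adjusted p = 8.61e-05) without replicate 4. *ATG101*, *RB1CC1* (the FIP200 scaffold) and *ULK2* were at 0.58, −0.01 and −0.12 and did not pass. Without replicate 4, *ATG101* was at 0.09, *RB1CC1* at 0.25 ± 0.07 (adjusted p = 0.0027), which passed, and *ULK2* at −0.08.

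The class III PI3-kinase complex, which makes PI3P, had 0 of 6 members called, at −0.38 to 0.15, and 1 without replicate 4, *AMBRA1*, which went from −0.03 to −0.24. Among the PI3P effectors and lipid carriers, 1 of 6 rose and 0 fell (median log2 fold change 0.42), and without replicate 4 it was 4 and 0 (median 0.26). For both roles, the shares of all genes were 5.5% higher and 4.71% lower, or 26.6% and 25.8% without replicate 4. *WIPI1*, a PI3P-binding protein of the forming autophagosome, stood at 22.8, 26.9, 22.1 and 26.7 in SCR (+dox), 21.97, 28.5, 23.4 and 21.5 in SCR (−dox), 23.8, 24.2, 21.7 and 21.6 in NAA40-KD (+dox) and 41.1, 38.8, 46.8 and 37.5 in NAA40-KD (−dox) CPM. The 4 NAA40-KD (−dox) libraries lay above all 12 others, and the remaining groups overlapped each other. The log2 fold change was 0.85 ± 0.13 (adjusted p = 0.00584), a 1.80-fold difference, and 0.89 ± 0.08 (adjusted p = 3.36e-09) without replicate 4. The scramblase gene *ATG9A* and the second PI3P effector *WIPI2* were at 0.56 ± 0.20 (adjusted p = 0.109) and 0.36 ± 0.13 (adjusted p = 0.108), without overlap of the groups. Without replicate 4 both were called, at 0.32 ± 0.05 (adjusted p = 2.93e-05) and 0.28 ± 0.06 (adjusted p = 3.85e-04).

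The 4 ATG4 proteases (−0.16 to 0.56) and the 6 conjugation genes (−0.37 to 0.10) had no member called, nor had the 2 lysosomal membrane genes (−0.48 and −0.10). Without replicate 4 the conjugation gene *ATG12*, at 0.33, was called higher, and *ATG16L1* and both lysosomal membrane genes were called lower. In that fit 26.6% of all genes were called higher and 25.8% lower. The 3 members that were lower without overlap of the groups were *ATG16L1*, *ATG7* and *LAMP2*. *ATG16L1*, which places the conjugation complex on the membrane, stood at 46.5, 52.3, 49.03 and 52.6 CPM in (+dox) and 38.8, 40.02, 36.6 and 39.7 in (−dox), at −0.37 ± 0.12 (adjusted p = 0.0757) and, without replicate 4, −0.38 ± 0.07 (adjusted p = 8.19e-05). *LAMP2* was at 94.4, 107.7, 99.2 and 90.6 and 81.2, 80.1, 88.3 and 30.7 CPM, and its log2 fold change of −0.48 moved to −0.23 without replicate 4. *ATG7* was at −0.14 and −0.17. These 3, *ATG9A* and *WIPI2* were named after their values were seen.

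Of the 2 transcription factors, 1 rose and 0 fell, where 5.5% and 4.71% of all genes did. *TFE3* stood at 39.1, 46.1, 40.8 and 44.2 in SCR (+dox), 37.3, 44.2, 40.01 and 34.2 in SCR (−dox), 33.3, 35.7, 30.3 and 36.01 in NAA40-KD (+dox) and 53.9, 47.5, 50.3 and 83.1 in NAA40-KD (−dox) CPM, with NAA40-KD (−dox) above all other libraries and replicate 4 the highest. Its log2 fold change of 0.80 ± 0.20 (adjusted p = 0.0347) was 0.58 ± 0.08 (adjusted p = 6.51e-07) without replicate 4. Leaving out any 1 of 6 other libraries of the comparison, all those labelled NAA40-KD (+dox) and replicates 1 and 3 of NAA40-KD (−dox), ended the call, at an adjusted p of up to 0.122 and log2 fold changes of 0.75 to 0.87. *TFEB*, at 44 to 97 counts per library, stood at 5.73, 6.29, 5.17 and 6.69 CPM in (+dox) and 3.58, 3.35, 3.43 and 7.08 in (−dox). Of the (−dox) libraries, 3 lay below all (+dox) libraries and replicate 4 above them. Its log2 fold change was −0.45 ± 0.26 (adjusted p = 0.298), and −0.79 ± 0.17 (adjusted p = 3.81e-04) without replicate 4.

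**Figure D2:**
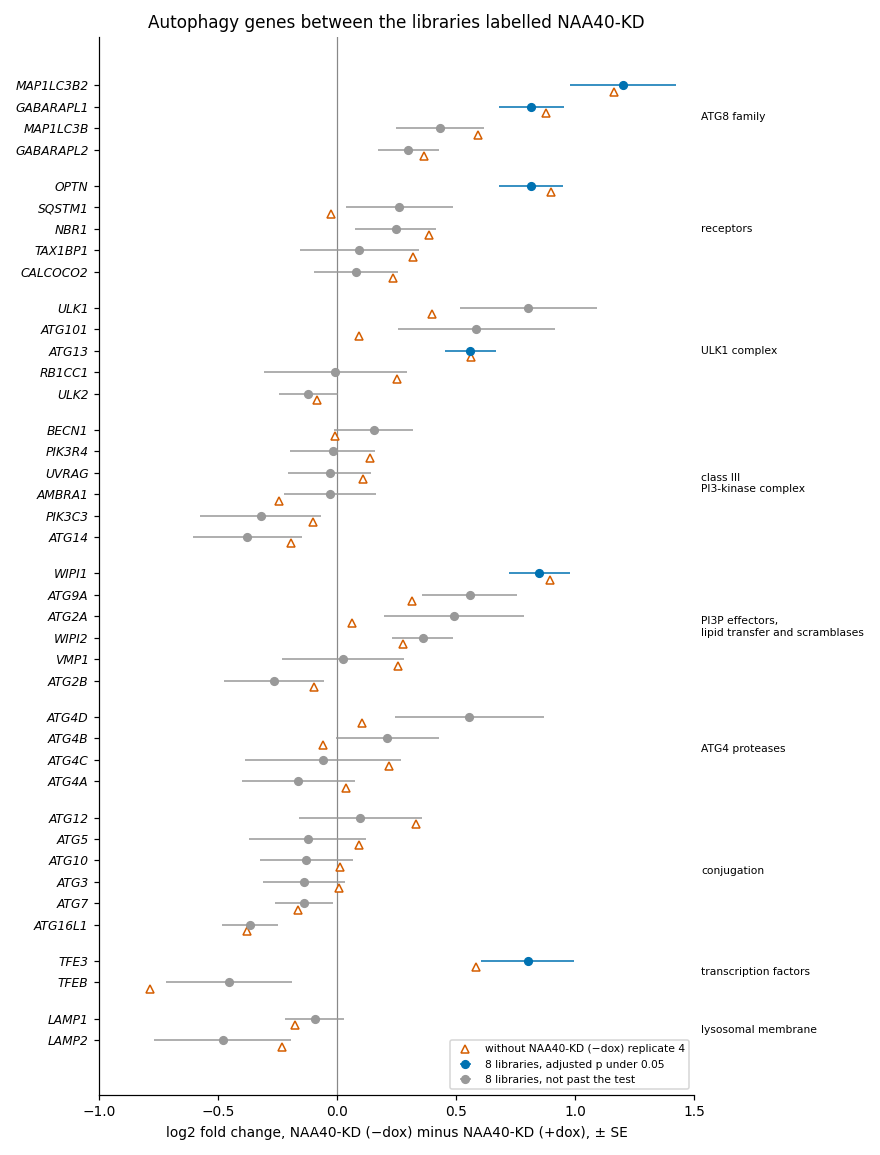
Log2 fold change ± SE (x axis) of the 40 members tested, NAA40-KD (−dox) minus NAA40-KD (+dox), ordered by role (y axis). Blue points passed the test, grey points did not, and open triangles give the value without NAA40-KD (−dox) replicate 4. The 6 blue points lie between 0.56 and 1.20, and the triangles of *SQSTM1*, *ULK1*, *ATG101*, *ATG2A* and *ATG4D* lie nearer to 0 than the points.

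**Figure D3:**
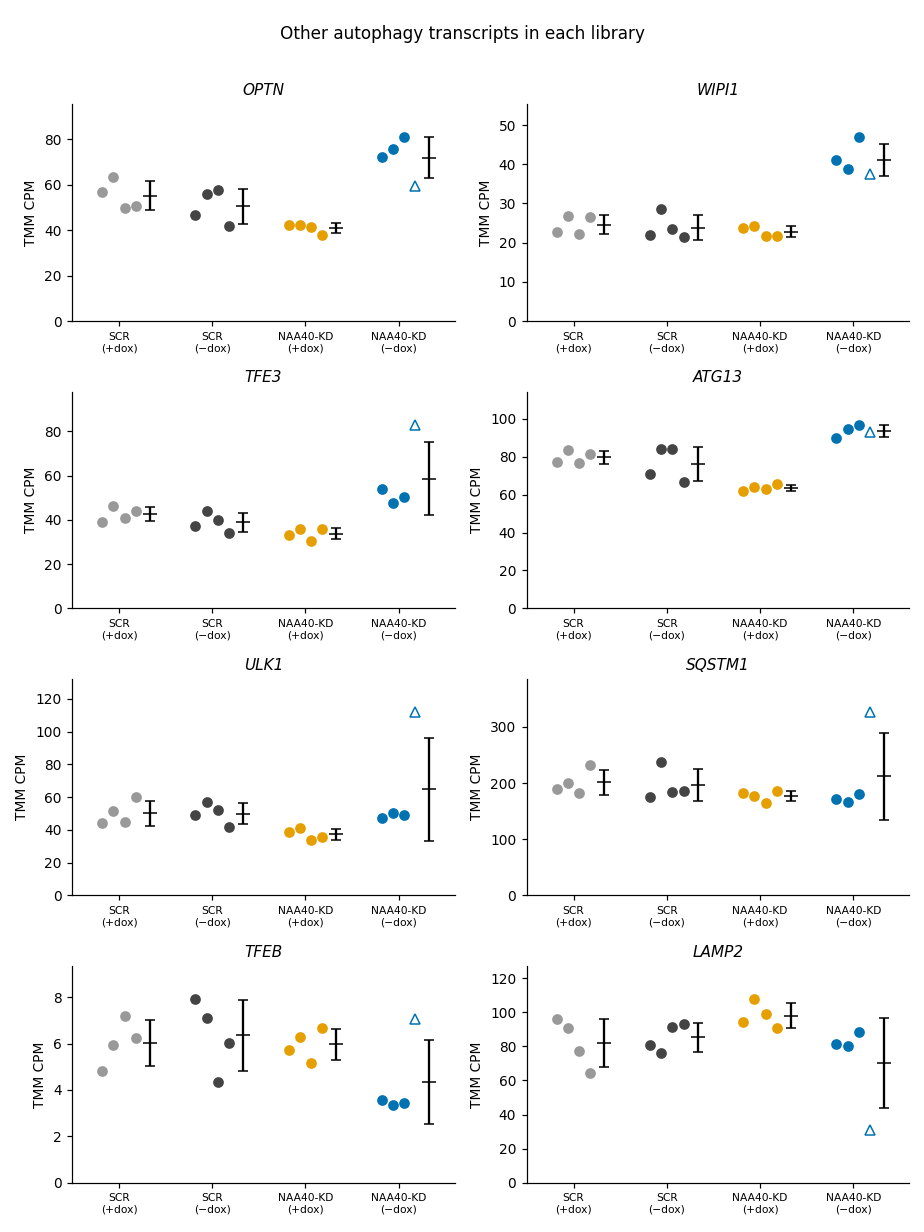
Levels of 8 further transcripts (y axis, TMM CPM from 0) in each library of the 4 labelled groups (x axis). Points are libraries, the open triangle is NAA40-KD (−dox) replicate 4, and bars are the mean ± SD (n = 4). For *ULK1*, *SQSTM1* and *TFEB* the triangle lies far above and for *LAMP2* far below the other 3 libraries of its group, while for *OPTN*, *WIPI1* and *ATG13* all 4 lie above NAA40-KD (+dox).

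When SCR (−dox) was set against SCR (+dox), 0 of 40 members were called in either direction, with 0% of 13882 genes called higher and 0% lower. DESeq2 and limma-voom also called 0 members, and 1 member had an unadjusted p under 0.05, *MAP1LC3B*, against 271 of the 13882 genes. The groups did not overlap for 1 of 40 members, *BECN1*, the Beclin 1 subunit of the class III PI3-kinase complex, against 1.58% of all genes. *MAP1LC3B* stood at 315.5, 329.4, 331.99 and 279.1 CPM in SCR (+dox) and 165.3, 317.6, 272.2 and 188.7 in SCR (−dox). In SCR (−dox), 2 libraries lay within or near the (+dox) range and the other 2, at 165.3 and 188.7 CPM, well below it. The difference on the log2 scale was −0.41 ± 0.16 (adjusted p = 1). *MAP1LC3B2*, *GABARAPL1* and *GABARAPL2* were at −0.33 ± 0.25, −0.14 ± 0.11 and −0.16 ± 0.12. *OPTN*, *WIPI1*, *TFE3*, *TFEB*, *ULK1* and *SQSTM1* lay between −0.13 and 0.07.

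The difference between the lines in their (−dox) minus (+dox) change was tested as an interaction over all 16 libraries. It was positive at an adjusted p under 0.05 for 6 of 40 members and negative for 0, with 11 at an unadjusted p under 0.05. Over all 14392 genes, 4.91% were called positive and 4.31% negative, and 3595 had an unadjusted p under 0.05. The 6 were again *MAP1LC3B2*, at 1.53 ± 0.38 (adjusted p = 0.0192), *GABARAPL1*, at 0.96 ± 0.16 (adjusted p = 0.00202), *OPTN*, at 0.94 ± 0.19 (adjusted p = 0.00541), *TFE3*, at 0.93 ± 0.22 (adjusted p = 0.0154), *WIPI1*, at 0.89 ± 0.18 (adjusted p = 0.00491), and *ATG13*, at 0.62 ± 0.14 (adjusted p = 0.0125). Each of the 6 was called in all 16 fits that left out 1 library. This comparison shares its NAA40-KD libraries with the one above and is not a second sample of them. Without replicate 4 the 6 were at 1.499, 1.02, 1.02, 0.72, 0.94 and 0.63, in the same order. The median was 0.16 over the members and 0.05 over all genes, or 0.13 and 0.02 without replicate 4.

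The interaction of *MAP1LC3B* is also the change in the line difference that selected it, so it is given as a description, with no p. With all 16 libraries it was 0.84 ± 0.28, and *MAP1LC3B* was not among the 6 members called. The value was 1.02 without SCR (−dox) replicate 2, 1.01 ± 0.20 without NAA40-KD (−dox) replicate 4 and 0.84 with DESeq2. Without NAA40-KD (−dox) replicate 4, 14 members, *MAP1LC3B* among them, were called positive and 2 negative (*ATG16L1* and *TFEB*), against 12.3% and 11.9% of all genes. *GABARAPL2*, *ULK1*, *SQSTM1* and *TFEB* were at 0.46 ± 0.18 (adjusted p = 0.112), 0.80 ± 0.32 (adjusted p = 0.133), 0.30 ± 0.26 (adjusted p = 0.499) and −0.53 ± 0.34 (adjusted p = 0.348). Without replicate 4 they were at 0.53 ± 0.15 (adjusted p = 0.0102), 0.40 ± 0.16 (adjusted p = 0.0658), 0.01 ± 0.14 (adjusted p = 0.953) and −0.85 ± 0.26 (adjusted p = 0.0204).

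**Figure D4:**
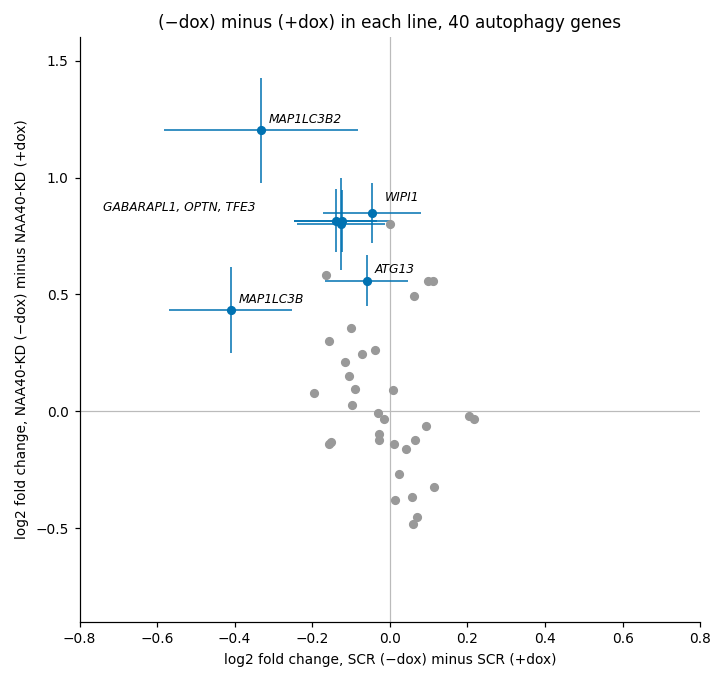
Log2 fold change of the 40 members, (−dox) minus (+dox), in the libraries labelled SCR (x axis) and NAA40-KD (y axis). Named points carry ± SE in both directions, and the label *GABARAPL1*, *OPTN*, *TFE3* stands for the 3 points beside it. The members lie within −0.41 to 0.22 on the x axis and spread from −0.48 to 1.20 on the y axis.

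The lines differed most, among the members, in *MAP1LC3B*. This is the difference that selected it. Its mean level was 314.01 ± 24.4 CPM in SCR (+dox), 235.9 ± 71.2 in SCR (−dox), 87.5 ± 2.77 in NAA40-KD (+dox) and 117.9 ± 28.3 in NAA40-KD (−dox) (SD, n = 4). No NAA40-KD library reached the lowest SCR library at either dox label. The log2 difference, NAA40-KD minus SCR, was −1.84 ± 0.09 at (+dox), −0.996 ± 0.25 at (−dox) and −1.42 ± 0.14 averaged over both, ranks from the lowest of 28 of 13869, 352 of 13903 and 57 of 14392 genes. It was the lowest member in each. Without replicate 4 the (−dox) mean was 131.7 ± 7.62 CPM (SD, n = 3), the (−dox) difference −0.84 and the average −1.34, and *TFEB* was then the lowest member at (−dox).

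Per kilobase of exon, *MAP1LC3B* stood well above its relatives in the SCR lines, at 59.1 CPM per kb in SCR (+dox) against 17.7 for *GABARAPL1* and 18.6 for *GABARAPL2*. In NAA40-KD (+dox) the 3 were at 16.5, 13.8 and 14.1, and in NAA40-KD (−dox) at 22.2, 24.3 and 17.3. *MAP1LC3B* was the highest of the 3 by mean level in both SCR groups and in NAA40-KD (+dox), and *GABARAPL1* in NAA40-KD (−dox), where without replicate 4 the 3 were at 24.8, 25.3 and 18.1.

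At (+dox), 1 of 40 members lay above and 13 lay below in NAA40-KD at the threshold used for all genes, where 10.9% and 13.7% of all genes did. Nothing about the members is read from this count or from the 2 that follow, since this difference chose one of them. The 5 lowest were *MAP1LC3B*, *MAP1LC3B2* at −1.01 ± 0.23, the xenophagy receptor gene *CALCOCO2* at −0.61 ± 0.08, *OPTN* at −0.43 ± 0.10 and *ULK1* at −0.43 ± 0.11. The 5 highest were *PIK3R4*, the regulatory subunit of the class III PI3-kinase, at 0.34 ± 0.09, *LAMP2* at 0.25, *ULK2* at 0.22, *UVRAG* at 0.13 and *ATG2B* at 0.10. The 4 ATG8-family members ran from −1.84 to −0.36.

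At (−dox), 2 members lay above and 1 below at that threshold, where 2.88% and 3.54% of all genes did, and without replicate 4 it was 9 and 6, where 17.1% and 19.4% did. The 5 highest were *WIPI1* at 0.79 ± 0.15, *TFE3* at 0.61 ± 0.21, *GABARAPL1* at 0.60 ± 0.14, *MAP1LC3B2* at 0.53 ± 0.27 and *OPTN* at 0.52 ± 0.16. Without replicate 4 they were at 0.82, 0.38, 0.65, 0.48 and 0.59. The 5 lowest were *MAP1LC3B*, *ATG4A* at −0.54, *TFEB* at −0.53, *ATG16L1* at −0.47 and *AMBRA1* at −0.35. The last 4 were at −0.35, −0.88, −0.50 and −0.57 without replicate 4.

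Averaged over the dox labels, 1 member lay above and 4 below, where 7.34% and 10.3% of all genes did, and without replicate 4 it was 2 and 11, where 18.1% and 20.7% did. The 5 lowest were *MAP1LC3B*, *CALCOCO2* at −0.47, *ATG4A* at −0.45, *AMBRA1* at −0.35 and *TFEB* at −0.28. Without replicate 4 the last 4 were at −0.39, −0.34, −0.45 and −0.44. The 5 highest were *WIPI1* at 0.34 ± 0.09, *PIK3R4* at 0.23, *ATG4D* at 0.13, *TFE3* at 0.13 and *ULK2* at 0.13. Without replicate 4 they were at 0.36, 0.31, −0.09, 0.03 and 0.15, so that *ATG4D* turned in sign.

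**Figure D5:**
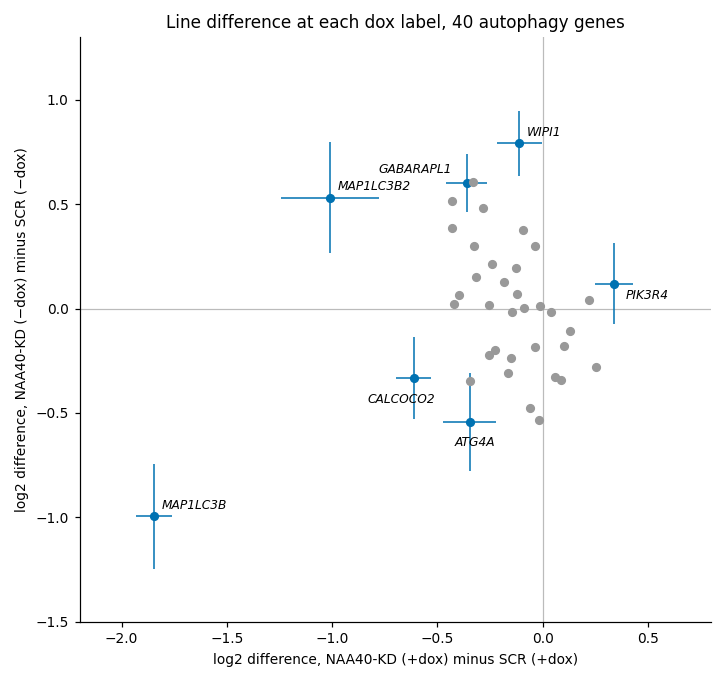
Log2 difference between the lines, NAA40-KD minus SCR, of the 40 members at (+dox) (x axis) and (−dox) (y axis), as a description. Named points carry ± SE in both directions. *MAP1LC3B* lies apart at the lower left (−1.84 and −0.996), and *WIPI1* and *GABARAPL1* lie at the top.

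Pathway genes outside the members were counted from 5 lists, which were also written with earlier results known. In NAA40-KD (−dox) minus NAA40-KD (+dox), 1 of 14 other core autophagy genes rose and 0 fell, namely *RUBCN*, at 1.37 ± 0.14 (adjusted p = 0.0015), the gene of Rubicon, which restrains the class III PI3-kinase and with it autophagosome maturation. Of 17 organelle autophagy receptors 1 rose, *CALCOCO1*, a receptor for the endoplasmic reticulum and Golgi, at 0.83 ± 0.16 (adjusted p = 0.0129). Of 12 fusion genes 1 fell, *SNAP29*, a SNARE that joins autophagosome and lysosome, at −0.59 ± 0.12 (adjusted p = 0.0179). The medians of the 3 lists were 0.31, 0.17 and 0.06. Over all genes tested, 5.5% were called higher and 4.71% lower, at a median of 0.04.

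Of 24 genes for lysosomal hydrolases and acidification, 1 rose and 2 fell, with a median of −0.03. The lysosomal cholesterol exporter *NPC1* was at 0.90 ± 0.12 (adjusted p = 0.00348), the proton pump subunit *ATP6V0E1* at −0.75 ± 0.13 (adjusted p = 0.00914) and the peptidase *TPP1* at −0.50 ± 0.11 (adjusted p = 0.0243). Of 28 genes of mTORC1 and AMPK control, 1 rose and 1 fell, with a median of 0.28. *CASTOR2*, related to the arginine sensor of mTORC1, was at 1.22 ± 0.24 (adjusted p = 0.0154) and *DEPTOR*, an mTOR-binding inhibitor, at −0.95 ± 0.16 (adjusted p = 0.00785).

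Without NAA40-KD (−dox) replicate 4 the calls in the 5 lists were 8 higher and 1 lower, 8 and 3, 3 and 3, 1 and 9, and 14 and 3, in the same order, at medians of 0.23, 0.19, 0.03, −0.13 and 0.20, while the share of all genes called was as given above. The 8 named genes were all called without it too, *RUBCN* at 1.28, *CALCOCO1* at 0.73, *SNAP29* at −0.53, *NPC1* at 0.90, *ATP6V0E1* at −0.69, *TPP1* at −0.49, *CASTOR2* at 1.05 and *DEPTOR* at −0.93. Between the SCR groups 0 genes of the 5 lists were called. In the interaction *RUBCN*, *CALCOCO1*, *NPC1*, *SNAP29*, *ATP6V0E1*, *TPP1* and *DEPTOR* were called in the same directions, at 1.36, 0.85, 0.94, −0.69, −0.67, −0.64 and −0.85. *BCL2L13*, a mitochondrial receptor, and *VAMP8*, the lysosomal SNARE partner of SNAP29, were also called, at 0.48 and 0.59, as was *FNIP2*, a partner of folliculin, at −0.79. By list, in the same order, 1 of 14 genes was called positive and 0 negative, then 2 and 0 of 17, and 1 and 1 of 12. For the lysosomal and the mTORC1 lists it was 1 and 2 of 24, and 0 and 2 of 28. The shares of all 14392 genes were 4.91% and 4.31%. All 10 named genes kept that call without replicate 4.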

How the data were processed

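The deposited values are raw counts, whole numbers of reads per gene without normalization, which the authors made with STAR (alignment) and featureCounts (counting). The methods name the mouse build mm10 and the processing notes name hg38 and GRCm38, whereas all 33937 gene identifiers were human. Genes were placed on GRCh38 with GENCODE 29, in which 33811 were found. The methods name a stranded kit and the labels a standard Illumina preparation, and since no source used here says whether counting took strand into account, counts of genes that overlap on opposite strands cannot be told apart. Groups came from the labels, and 0 columns of counts were unmatched. Libraries of a group differed beyond sampling noise (chi-square over degrees of freedom 1.79 to 156 per pair). The methods speak of independent RNA samples, and whether these were separate cultures is not given in the sources used here, so p-values measure only the spread between these libraries.

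The deposited counts were tested in edgeR 4.0.16 (R 4.3.3). Genes entered a fit if CPM was above 1 in 4 or more of its libraries, scaling was by TMM, and two-sided quasi-likelihood tests (robust) were adjusted by Benjamini and Hochberg's method over every gene in the fit. A gene was called at an adjusted p under 0.05, and verbs of change are used only of called genes. Each comparison of 4 against 4 libraries was fitted on its 8 libraries, and the interaction and the averaged line difference on all 16. The SE was taken as |log2 fold change| over √F. Levels per library are CPM scaled by TMM over all 16. The test was checked on counts simulated for each tested comparison. At log2 changes of 0.5 and 1 it recovered 2% and 44% of the changed genes between the NAA40-KD groups (13844 genes), 33% and 90% between the SCR groups (13882 genes) and 2% and 37% in the interaction (14392 genes), so smaller changes could go uncalled. Each simulation changed 100 genes at each size. In the data, 1414 genes were called between the NAA40-KD groups and 1327 in the interaction. The recovered shares thus hold for a setting with few changed genes and do not measure the power of those 2 tests.

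The members and lists were chosen with earlier results of these data known. Named were the ATG8 family, called members, *SQSTM1*, *TFEB*, *TFE3* and *ULK1*, the 5 highest and 5 lowest members of each line comparison, *NAA40*, and up to 3 called genes per direction in each list. Alternatives were upper-quartile scaling, DESeq2 1.42.0, limma-voom (limma 3.58.1), a filter of none or of CPM above 1 throughout, the replicate number as a block, one model of all 16 libraries, each library left out in turn, and thresholds of 0.01 for the adjusted p or of 1 for the absolute log2 fold change. The lists and the genes next to *MAP1LC3B* without NAA40-KD (−dox) replicate 4 were added after the data had been seen.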

Additional observations from a re-analysis of the deposited data

Results flagged for a closer look

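Of 68 groups of 4 libraries examined for the named members, 6 held a library whose gap to the nearest other, as a share of the group's range, was above Dixon's limit of 0.829. Chance alone flags about 1 in 20 groups if they are independent and normally spread. The groups here share their libraries, so the 6 cannot be weighed against that rate. In NAA40-KD (−dox), replicate 4 was the library in 5 of them. *ULK1* was at 112 CPM there (gap 0.958 of the range), *SQSTM1* at 327 CPM (0.910) and *TFEB* at 7.08 CPM (0.937), each the highest of its group. *LAMP2* was at 30.7 CPM (0.858) and *CALCOCO2* at 82.8 CPM (0.875), each the lowest. The sixth was *GABARAP* in SCR (+dox) replicate 2, at 0.0780 CPM (0.885), which rests on 1 count.

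The (−dox) minus (+dox) change differed between the lines, by the interaction test, for 6 of 40 members. Of all 14392 genes, 4.91% were called positive and 4.31% negative. For the 6 members the differences in log2 fold change, NAA40-KD minus SCR, were 1.53 for *MAP1LC3B2*, 0.96 for *GABARAPL1*, 0.94 for *OPTN*, 0.93 for *TFE3*, 0.89 for *WIPI1* and 0.62 for *ATG13*. The limits on the counts of *MAP1LC3B2* given above apply.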

How the results depend on the processing

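The share of all genes called in the same fit stands in brackets beside each count. Leaving out each library in turn gave 4 to 22 called members between the NAA40-KD groups (2.77% to 52.4%), 0 to 0 between the SCR groups (0% to 0%), 6 to 16 in the interaction (5.71% to 24.2%), and, as a description, 0 to 15 between the lines at (−dox) (1.64% to 36.5%), 10 to 15 at (+dox) (17% to 25.4%) and 4 to 13 averaged over the dox labels (13.6% to 38.7%). The highest counts in the 4 comparisons with NAA40-KD (−dox), 22, 16, 15 and 13, came without its replicate 4. A fit over all 16 libraries called 10 members between the NAA40-KD groups (22.3%), 7 between the lines at (−dox) (20.5%) and 3 at (+dox) (6.71%). An adjusted p under 0.01 left 3 members between the NAA40-KD groups (2.39%), 3 in the interaction (3.23%), and 0 (1.11%), 7 (12.7%) and 2 (8.32%) in the line comparisons at (−dox), at (+dox) and averaged, and an absolute log2 fold change above 1 left 1 (3.99%), 1 (4.49%), 0 (3.47%), 2 (2.15%) and 1 (1.86%). DESeq2 called 6 members between the lines at (−dox) (13.8%), and no filter left 3 in the averaged difference (6.6% of 33937 genes). DESeq2 and the fit over all 16 libraries also called *ULK1* between the NAA40-KD groups, and DESeq2 and no filter called *MAP1LC3B* in the interaction. Calls of *MAP1LC3B* in the interaction are a description, since its line difference selected it. Without the filter *TFE3* (0.76) and *ATG13* (0.52) were not called between the NAA40-KD groups, nor *ATG13* in the interaction (0.59). The cause was not tested.

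Signs turned for *SQSTM1* between the NAA40-KD groups without NAA40-KD (−dox) replicate 4 (−0.028, against up to 0.37 without another library), for *ATG2B* between the lines at (+dox) without SCR (+dox) replicate 3 (−0.037, against up to 0.24) and for *ATG4D* in the averaged line difference without NAA40-KD (−dox) replicate 4 (−0.087, against up to 0.21). Of the values of named members under the alternatives, 926 kept their direction and their side of the threshold, 13 gained a call, 15 lost one and 3 turned.

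Replicate numbers are shared between groups in the labels, but same-numbered libraries did not deviate together in every pair (correlations of 0.04, 0.24, 0.13 and 0.27 in the NAA40-KD line and −0.29 to 0.05 in the SCR line), so they are taken to share only a number. With the number as a replicate block, 4 members were called between the NAA40-KD groups (5.61% of all genes, against 10.2% without the block), and *TFE3* at 0.77 (adjusted p = 0.0569) and *ATG13* at 0.56 (adjusted p = 0.065) were not. The block called 0 between the SCR groups (0%), 7 in the interaction (8.46%, *MAP1LC3B* added, at 0.84), and 0 (0.59%), 16 (29.3%) and 6 (17.7%) in the line comparisons at (−dox), at (+dox) and averaged.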

Other observations

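In NAA40-KD (−dox) replicate 4, the members spread from 0.317 to 2.62 times the mean of replicates 1 to 3, against 0.494 to 1.75 in the other 15 libraries. Lowest were *ATG4C* (0.317), *RB1CC1* (0.351), *LAMP2* (0.369), *ATG12* (0.406) and *VMP1* (0.414), and highest *ATG101* (2.62), *ATG4D* (2.48), *ATG2A* (2.38), *ULK1* (2.29) and *TFEB* (2.05). *ATG13* (0.995), *ATG16L1* (1.03) and *ATG7* (1.07) lay close to their fellows. These genes were named after their values were seen.

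The tested genes next to *MAP1LC3B* on chromosome 16 differed less between the lines than it did on the average over the dox labels. They were chosen after the data had been seen and are given as a description. Averaged over the dox labels, the log2 difference, NAA40-KD minus SCR, was −0.33 ± 0.13 (SE) for *FBXO31*, whose exons overlap it on the opposite strand, and −0.63 ± 0.34 for ENSG00000269901, within the span of *FBXO31*. For *ZCCHC14*, the next gene beyond its end, it was −0.15 ± 0.08, from 0.23 at (+dox) and −0.53 at (−dox). It was −0.75 ± 0.15 for *SLC7A5*, an amino acid transporter gene farther along, and −0.39 to 0.12 for *FOXL1*, *MTHFSD*, *KLHDC4* and ENSG00000226180. Without NAA40-KD (−dox) replicate 4, the averages of *FBXO31*, *ZCCHC14* and *SLC7A5* were −0.45, −0.16 and −0.90. The difference of *FBXO31* was −0.59 at (+dox) and −0.04 at (−dox), where that of *MAP1LC3B* was −1.84 and −0.996. Without that library the (−dox) differences of *FBXO31* and *MAP1LC3B* were −0.32 and −0.84. In that setting *SLC7A5* and *FOXL1* were at −0.86 and −0.85, as low as *MAP1LC3B*.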
